A study of Mus musculus with 7 samples.

Results

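Cells with a very high immunoglobulin transcript count were compared by isotype, IgM against class-switched (IgG or IgA), in single-cell B cell receptor libraries from mouse lymph nodes. Members were chosen by their heavy chain transcript count: a cell belonged to the group when its barcode held exactly 1 productive heavy chain contig, that contig had at least 100 unique molecular identifiers (UMIs, tags that count captured mRNA molecules) and it had a constant region call. The rule was met by 98 of 19617 cells with 1 heavy chain and an isotype over 7 libraries, of which 36 were IgM and 62 switched. In the 6 libraries of 1 node and 1 genotype it was met by 68 of 17178 cells, 26 IgM and 42 switched, and these are described first. The remaining 30 cells came from 1 library in which nodes and genotypes were combined, and they are kept apart. No high cell was called IgD, and IgD cells of any UMI count numbered 3591 in the 6 libraries and 544 in the combined one. No cell with 1 heavy chain was called IgE in any library, high or not.

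The libraries held immune cells of deep cervical (dCLN), superficial cervical (sCLN) and inguinal (iLN) lymph nodes from 5xFAD and WT female mice aged 10 to 11 months. 5xFAD mice carry human amyloid precursor protein and presenilin 1 transgenes with familial Alzheimer's disease mutations under the neuronal Thy1 promoter and develop brain amyloid, and WT mice are wild type. Cells were hashtagged and combined before capture, the number of animals per library is not given in the sources used here, and each node and genotype was 1 library. High cells numbered 16 in 5xFAD dCLN, 21 in WT dCLN, 4 in 5xFAD sCLN, 23 in WT sCLN, 1 in 5xFAD iLN and 3 in WT iLN.

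B cells that differentiate into plasmablasts and plasma cells raise immunoglobulin transcription steeply and secrete the receptor as antibody. Those that arise without a germinal centre often secrete IgM with few V region mutations. Germinal centre B cells acquire somatic hypermutation through activation-induced deaminase, the enzyme that also starts class switching. Gene expression was not used here, so no plasma cell marker could be checked, and the cells are called high cells after their rule.

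The libraries held 2398 to 4411 barcodes and 99906 to 312484 immunoglobulin UMIs, at 26.0 to 114 reads per UMI. Over the 21 pairs of the 7 libraries, 320 barcode occurrences were shared, 4 to 35 per pair, and 0 of them carried the same heavy chain junction; 2 of the high cells' barcodes were among them. Intervals of shares given below are exact Clopper-Pearson 95% intervals, those of differences between shares combine the intervals of both shares by Newcombe's method, and all cover counting error only. Cells are not replicates, so tests compared 1 value per library, paired within libraries, by exact two-sided sign-flip tests with Benjamini-Hochberg adjustment over 9 tests. Of these, 2 concern quantities that contain the heavy chain UMIs and are given below as descriptions only. The smallest adjusted p of the other 7 was 0.375, so none passed a threshold of 0.05. Only 3 libraries held high cells of both classes (5xFAD dCLN, WT dCLN and WT sCLN), and there the smallest p that the test allows is 0.25.

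IgM made up 38.2% of the high cells of the 6 libraries (26.7 to 50.8), IgA 23.5%, IgG2c 17.6%, IgG2b 16.2%, IgG1 2.94% and IgG3 1.47%. The constant genes IGHM (GRCm38 chromosome 12, 113418558 to 113422730), IGHG2C (113285325 to 113288932) and IGHA (113254830 to 113260236) lie on the minus strand, with IGHM nearest to the joining segments. The IgM share of high cells was 5 of 16 in 5xFAD dCLN, 6 of 21 in WT dCLN and 8 of 23 in WT sCLN. All 4 high cells of 5xFAD sCLN and all 3 of WT iLN were IgM, and the 1 high cell of 5xFAD iLN was IgG2b. Set against all cells of a class, high cells were rarer among IgM than among switched cells in 4 of 6 libraries. They were 0.161% of IgM and 6.92% of switched cells in 5xFAD dCLN, 0.262% and 11.0% in WT dCLN, 0.218% and 0% in 5xFAD sCLN, 0.321% and 10.4% in WT sCLN, 0% and 4% in 5xFAD iLN, and 0.180% and 0% in WT iLN. The difference, IgM minus switched, averaged -5.20 percentage points (SD 4.84, n = 6 libraries). It is a description with no test, since heavy chain UMIs chose the high cells.

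Heavy chain UMIs chose the cells, and they are described without a test. High IgM cells had a median of 185 heavy chain UMIs (106 to 1791) and high switched cells a median of 1145 (130 to 11129). By library the medians for IgM and switched cells were 158 and 558 in 5xFAD dCLN, 243 and 1674 in WT dCLN, and 541.5 and 2233 in WT sCLN, so the IgM median was the lower one in each, while the ranges overlapped. Of the IgM cells, 14 of 26 lay below 200 UMIs and 3 reached 1000. Of the switched cells, 2 of 42 lay below 200 and 23 reached 1000. IgA cells had a median of 1703 (274 to 11129, n = 16) and IgG cells one of 973.5 (130 to 8595, n = 26).

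**Figure D1:**
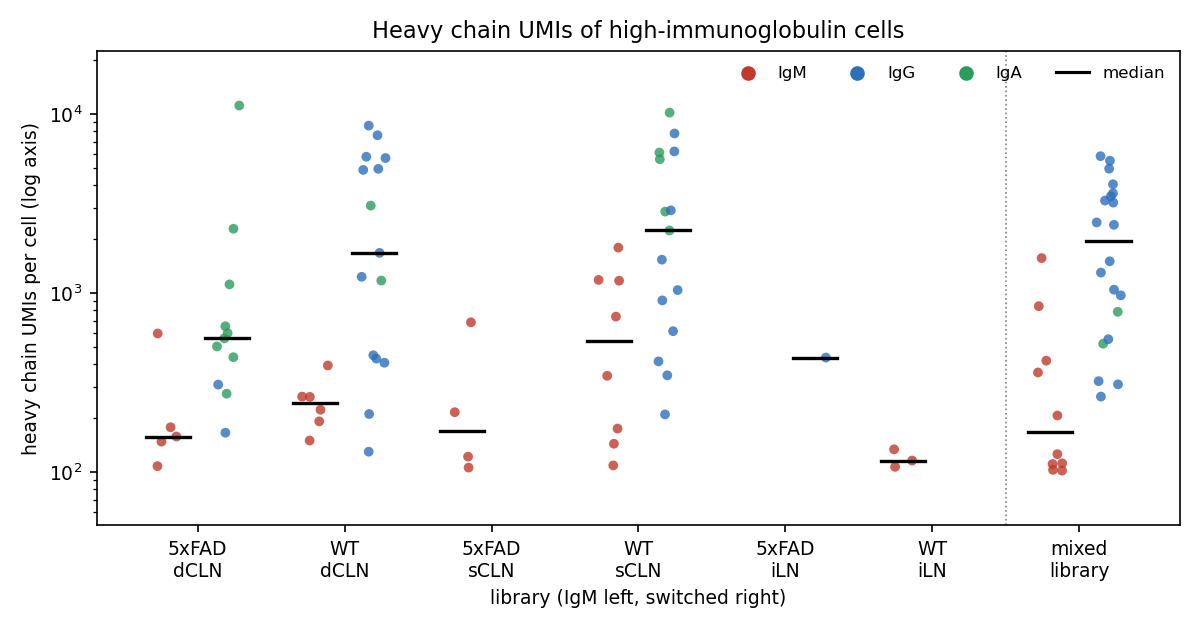
Heavy chain UMIs per high cell (log axis) by library, IgM cells on the left and switched cells on the right of each library, with a bar at the median. Switched medians were above IgM medians in the 3 single-node libraries that held both, and the 3 IgM cells of these 6 libraries above 1000 UMIs were all in WT sCLN.

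Over the 6 libraries, the 3 IgM cells with most heavy chain UMIs were all from WT sCLN. One used IGHV1-50 with IGKV4-70 (1791 heavy and 6570 light chain UMIs), and the other two shared IGHV2-3 with IGLV1 (1183 and 1171 heavy, 3219 and 3210 light chain UMIs). None of the 3 had a V substitution in either chain. The 3 highest switched cells were an IgA cell of 5xFAD dCLN with IGHV1-62-2 (11129), an IgA cell of WT sCLN with IGHV1-75 (10152) and an IgG2b cell of WT dCLN with IGHV2-9-1 (8595). All 3 were mutated in both chains.

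The threshold cut the classes at different places of their distributions. Of all IgM cells, 0.507% had 50 to 99 UMIs (66 cells), 0.107% had 100 to 199 (14 cells), 0.0461% had 200 to 499 (6 cells), 0.0230% had 500 to 999 (3 cells) and 0.0230% had 1000 or more (3 cells). Of all switched cells, 3.37% had 50 to 99 UMIs (19 cells), 0.355% had 100 to 199 (2 cells), 1.95% had 200 to 499 (11 cells), 1.07% had 500 to 999 (6 cells) and 4.09% had 1000 or more (23 cells). These ranges differ in width, and the last one is open. The 5 cells next above the threshold were all IgM, with 106, 107, 108, 109 and 116 UMIs. Those next below had 96, 94, 92 and 91 UMIs in switched cells and 93 in an IgM cell. With 50 UMIs as the threshold IgM made up 60.1% of the high cells, and with 200 it made up 23.1%.

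**Figure D2:**
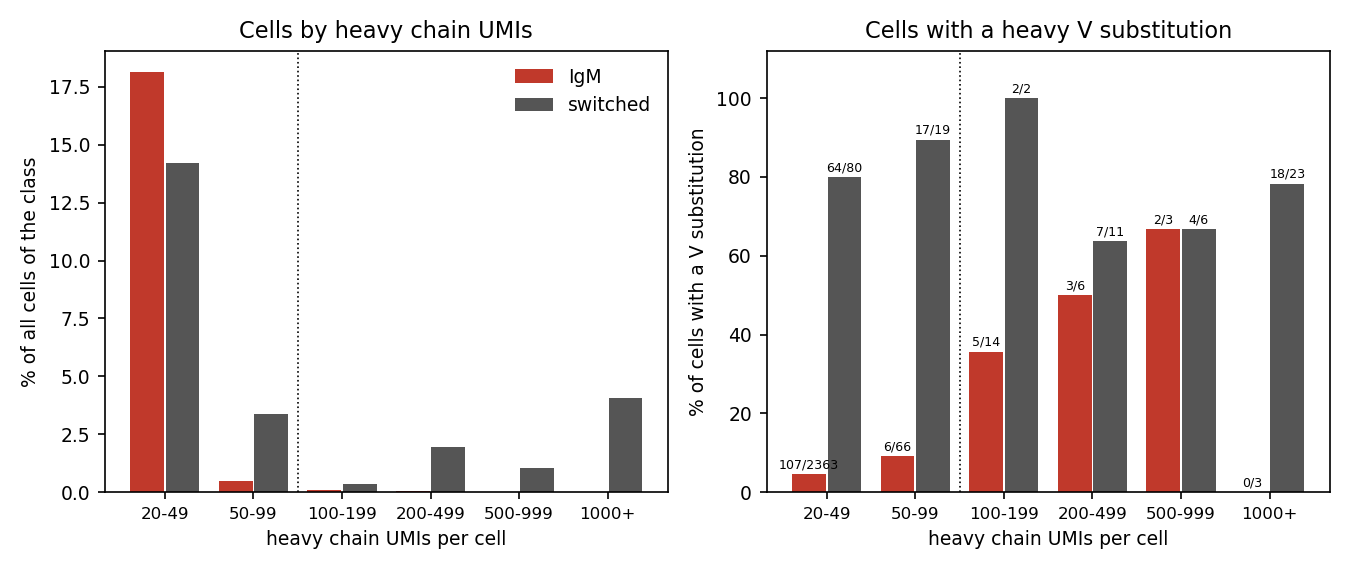
Left, percent of all IgM or switched cells of the 6 libraries in each range of heavy chain UMIs. Right, percent of the cells in each range with at least 1 heavy chain V substitution, with counts above the bars; the dotted line is the threshold of 100. The last range is open and spans more UMIs than the others. Of the IgM cells, 5 of 14 with 100 to 199 UMIs and 6 of 66 with 50 to 99 were mutated.

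Light chain UMIs, which the rule did not use, followed heavy chain UMIs in both classes. High IgM cells had a median of 296 light chain UMIs (0 to 10709) and high switched cells a median of 1910 (129 to 18337). The median ratio of light to heavy chain UMIs was 1.56 in IgM cells and 1.53 in switched cells, and light chain UMIs were the more numerous in 19 of 26 and 28 of 42 cells. Across cells, which share libraries and depth, Spearman's rho between heavy and light chain UMIs was 0.842 over 25 IgM cells and 0.800 over 42 switched cells. On a log2 scale the light to heavy ratio, IgM minus switched, was -1.88 in 5xFAD dCLN, -0.28 in WT dCLN and 0.72 in WT sCLN, with a mean of -0.48 (SD 1.31, n = 3). It is given without a test, since its denominator is the count that chose the cells. That sign turned with medians over cells (0.42), with a threshold of 200 (0.54) and without 5xFAD dCLN (0.22). An IgM cell of 5xFAD dCLN with 158 heavy and 3 light chain UMIs weighed on that mean. Single IgM cells stood far to either side: IGHV6-3 with IGLV1 in 5xFAD sCLN had 686 heavy and 10709 light chain UMIs, while an IGHV1-9 cell of WT sCLN had 144 heavy chain UMIs and no light chain contig. In cells below the threshold the median ratio was 2.43 in IgM and 3.50 in switched cells, a comparison that the choice by heavy chain UMIs itself affects. A second productive light chain was present in 2 IgM cells and in 0 switched cells.

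Reads per heavy chain UMI had a median of 44.1 in high IgM cells (7.82 to 72.8) and 28.9 in high switched cells (2.55 to 139). No barcode of the series had more than 76057 reads, and the median over heavy and light chains was 22414 reads in high IgM cells and 67085 in high switched cells. The part of this in the UMI counts of the highest cells was not tested.

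**Figure D3:**
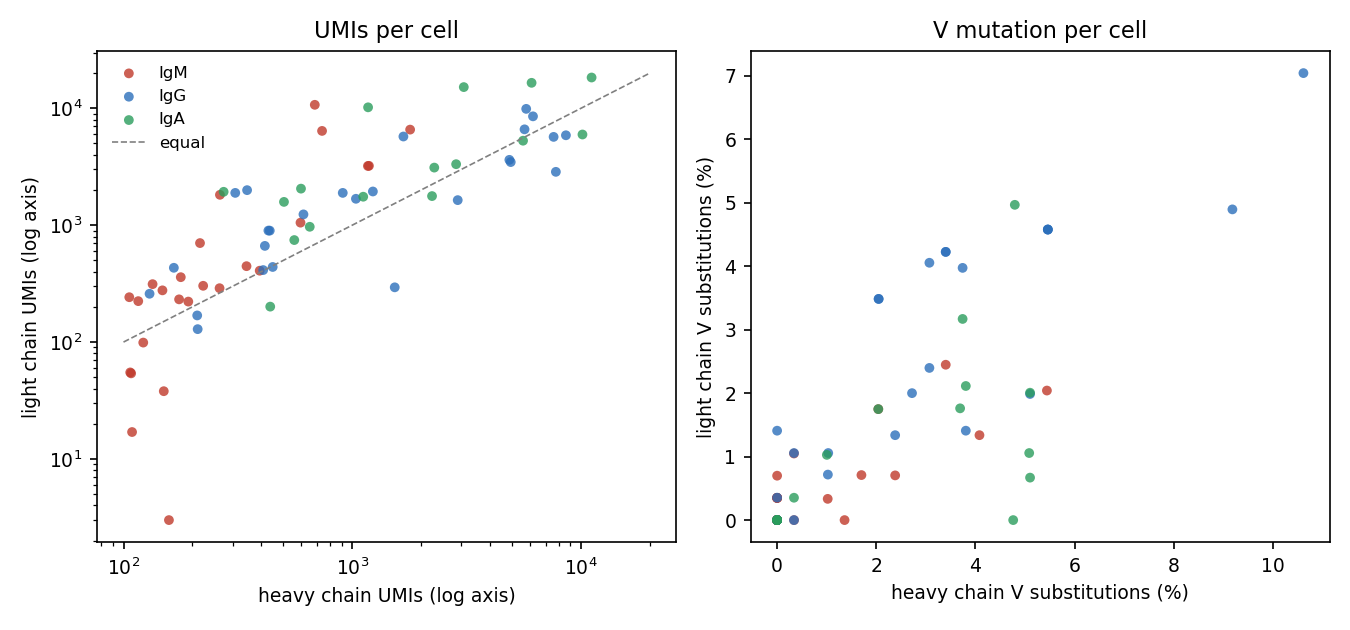
High cells of the 6 libraries, 1 point per cell, coloured by isotype. Left, light against heavy chain UMIs on log axes, with the dashed line at equal numbers (the cell without a light chain is not drawn); right, light against heavy chain V substitutions in percent of V bases. IgM cells lay at lower UMIs than IgG and IgA cells, and heavy and light chain mutation were related in both classes (rho 0.685 in IgM and 0.765 in switched cells).

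High IgM cells carried fewer heavy chain V mutations than high switched cells in the WT cervical libraries, and about as many in 5xFAD dCLN. Mean heavy chain V mutation, in percent of V bases that differ from germline, was 1.43 in IgM and 1.39 in switched cells of 5xFAD dCLN, with SDs among cells of 1.37 and 1.73. It was 0.680 and 3.60 in WT dCLN (SD 1.67 and 2.93), and 0.213 and 2.93 in WT sCLN (SD 0.601 and 2.45). The mean difference was -1.86 points (SD 1.65, n = 3 libraries, exact p = 0.5, adjusted p = 0.562), negative in 2 of 3 libraries. At least 1 heavy chain substitution was present in 10 of 26 IgM cells (38.5%, 20.2 to 59.4) and 31 of 42 switched cells (73.8%, 58.0 to 86.1). Light chains gave the same order, with mean differences of 0.236 points in 5xFAD dCLN, -2.35 in WT dCLN and -1.94 in WT sCLN (mean -1.35, SD 1.39, n = 3, exact p = 0.5, adjusted p = 0.562). Both chains were free of substitutions in 10 IgM and 9 switched cells. Heavy and light chain mutation were related across cells (Spearman's rho 0.685 over 25 IgM cells and 0.765 over 42 switched cells), whereas heavy chain UMIs and mutation were not closely related (rho -0.0964 and 0.161).

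Some positions differed from the assigned germline gene in most cells. In IGKV6-13, 4 positions did so in 86.6% of unswitched cells below the threshold, and the 1.41% of an IgG1 cell of WT sCLN with IGHV1-9 and IGKV6-13 equals 4 substitutions. In IGHV1-69, 1 such position was at odds with germline in 63.1% of unswitched cells, and 1 IgM cell of 5xFAD sCLN used that gene. With such positions left out, the heavy and light chain differences kept their sign.

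**Figure D4:**
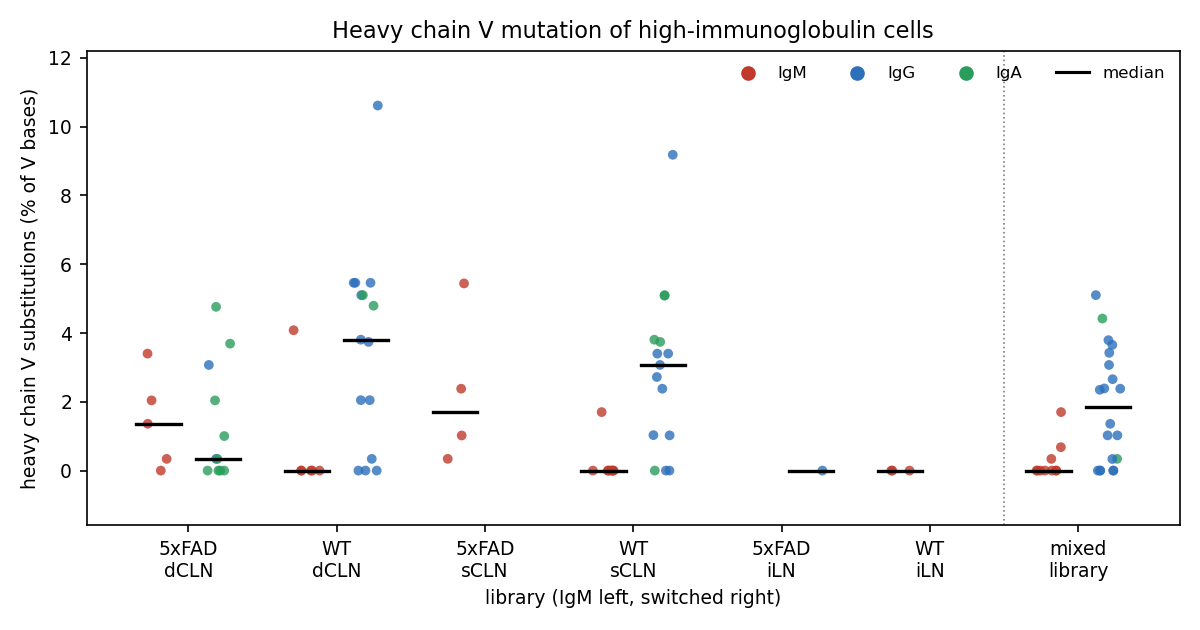
Heavy chain V substitutions in percent of V bases per high cell, by library, IgM on the left and switched on the right, with a bar at the median. IgM medians were 0 in WT dCLN, WT sCLN and WT iLN, but 1.36 in 5xFAD dCLN and 1.70 in 5xFAD sCLN.

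Among high IgM cells, those of the 5xFAD libraries mostly carried heavy chain V substitutions and those of the WT libraries mostly did not. Cells are called mutated here by the heavy chain alone. Heavy chain substitutions were present in 8 of 9 cells of 5xFAD libraries (88.9%, 51.8 to 99.7). In WT libraries it was 2 of 17 (11.8%, 1.46 to 36.4). With identical receptors counted once the numbers were 8 of 9 and 2 of 13. By node, 4 of 5 cells of 5xFAD dCLN and 1 of 6 of WT dCLN were mutated, a difference of 63.3 percentage points (-6.80 to 88.7). In the sCLN it was 4 of 4 and 1 of 8, a difference of 87.5 points (15.1 to 99.7). The iLN offered no comparison, with 0 high IgM cells in 5xFAD and 3 in WT, none of them with a heavy chain substitution. The 9 heavy chain values in 5xFAD cells were 0, 0.340, 1.36, 2.04 and 3.40% in dCLN and 0.341, 1.02, 2.38 and 5.44% in sCLN. In WT, the mutated cells had 4.08% in dCLN and 1.70% in sCLN. Light chain substitutions were present in 6 of 9 cells of 5xFAD libraries (66.7%, 29.9 to 92.5). In WT libraries it was 7 of 16 (43.8%, 19.8 to 70.1), and the intervals overlapped. By node it was 3 of 5 in 5xFAD and 5 of 6 in WT dCLN, and 3 of 4 and 1 of 7 in sCLN. In WT dCLN, 4 of these 5 cells were of 1 clone. With 1 library per node and genotype the contrast of genotypes has no replicate check, and it was chosen after its values were seen.

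The heavy chain difference between genotypes depended on the threshold. Among IgM cells with 50 to 99 UMIs, 0 of 18 were mutated in 5xFAD dCLN and 3 of 4 in WT dCLN, so that with a threshold of 50 the dCLN difference turned to -22.6 points and the sCLN difference was 15.5. Among IgM cells with 20 to 49 UMIs the mutated share was 3.83% in 5xFAD libraries (2.88 to 5.00) and 5.46% in WT libraries (4.14 to 7.05). Reads per UMI differed between the libraries, at 41.5 in 5xFAD dCLN and 26.0 in WT dCLN, and at 67.8 in 5xFAD sCLN and 29.3 in WT sCLN, and their part in the result was not tested.

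Switched high cells had the opposite order of genotypes in the dCLN, with means of 1.39% in 5xFAD and 3.60% in WT. The dCLN was the only node with switched high cells in both genotypes. Heavy chain mutation averaged 1.27% in 5xFAD libraries (SD 1.70, 12 cells) and 3.26% in WT libraries (SD 2.67, 30 cells), and substitutions were present in 7 of 12 and 24 of 30 cells, with overlapping intervals of 27.7 to 84.8 and 61.4 to 92.3. The nodes were not alike in these pooled values, since 11 of the 12 5xFAD cells were from dCLN and 15 of the 30 WT cells from sCLN. The isotypes differed as well, since 9 of the 12 5xFAD cells and 7 of the 30 WT cells were IgA. Within IgA, mutation averaged 1.32% in 5xFAD (SD 1.80, 9 cells, 4 of them unmutated) and 3.95% in WT (SD 1.84, 7 cells, 1 unmutated). All 9 of these 5xFAD cells were from dCLN, while 2 of the WT cells were from dCLN and 5 from sCLN.

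Set against the other IgM cells of the same library, high IgM cells were more mutated in 4 of 5 libraries. The means for high and other IgM cells were 1.43% and 0.0233% in 5xFAD dCLN, 0.680% and 0.0333% in WT dCLN, 2.30% and 0.0224% in 5xFAD sCLN, 0.213% and 0.0285% in WT sCLN, and 0% and 0.0226% in WT iLN. The mean difference was 0.897 points (SD 0.945, n = 5, exact p = 0.125, adjusted p = 0.375, smallest possible p 0.0625). It was 0.351 points with a threshold of 50 UMIs, 1.38 with one of 200 and 0.553 without 5xFAD sCLN. Over the 6 libraries, substitutions were present in 38.5% of high and 4.17% of other IgM cells (3.84 to 4.53). For high against other switched cells the difference was -0.895 points in 5xFAD dCLN, 0.818 in WT dCLN, 0.0651 in WT sCLN and -2.28 in 5xFAD iLN, where 1 high cell was present (mean -0.573, SD 1.34, n = 4, exact p = 0.5, adjusted p = 0.562). Without 5xFAD iLN the mean difference was -0.00385 points.

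The most mutated high cell of each class is shown to make the load visible. Both V regions are as read in the cell, 5′ to 3′, with bases that differ from the assigned germline gene in capitals. The IgM cell of 5xFAD sCLN used IGHV6-3 (chromosome 12, 114391712 to 114392169) with IGLV1 and had 16 substitutions in 294 bases, 5 of them in CDR2. The IgG2b cell of WT dCLN used IGHV8-12 (chromosome 12, 115647945 to 115648387) with IGKV14-111 and had 31 in 292 bases, 19 of them in framework 3. Its light chain carried 20 substitutions (7.04%).
5xFAD sCLN, IgM, IGHV6-3: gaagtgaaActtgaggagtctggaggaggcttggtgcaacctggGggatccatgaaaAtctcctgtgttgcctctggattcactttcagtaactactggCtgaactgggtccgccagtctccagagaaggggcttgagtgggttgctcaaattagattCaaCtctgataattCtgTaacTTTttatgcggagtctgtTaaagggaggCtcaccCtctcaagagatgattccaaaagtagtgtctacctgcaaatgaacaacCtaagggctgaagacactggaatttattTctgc
WT dCLN, IgG2b, IGHV8-12: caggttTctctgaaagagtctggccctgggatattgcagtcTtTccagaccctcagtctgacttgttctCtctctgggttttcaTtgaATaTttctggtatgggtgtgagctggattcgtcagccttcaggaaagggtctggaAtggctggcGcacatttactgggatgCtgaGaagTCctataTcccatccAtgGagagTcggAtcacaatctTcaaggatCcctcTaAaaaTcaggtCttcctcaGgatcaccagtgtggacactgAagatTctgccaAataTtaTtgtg

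Within the V region the substitutions of both classes were densest in CDR2, a loop that contacts antigen. With each distinct receptor counted once and the positions shared by most cells left out, CDR2 carried 17 substitutions in 528 bases in 22 IgM receptors (3.22%) and 44 in 843 bases in 36 switched receptors (5.22%). CDR1 carried 0.749% and 3.60%, and frameworks 1 to 3 together 0.795% and 2.33%. In CDR1 and CDR2, 20 of 21 substitutions in IgM receptors and 62 of 76 in switched receptors changed the amino acid. In the frameworks it was 29 of 42 and 122 of 201. The IgM values rest on the 10 high IgM cells that carried a substitution. The IGHV6-3 cell shown above held 16 of the 64 IgM substitutions, with 5 of the 17 in CDR2. The IGHV8-12 cell held 31 of the 284 in switched receptors, 2 of them in CDR2. The share of transitions had overlapping intervals in the classes. Transitions were 59.4% of 64 substitutions in IgM (46.4 to 71.5) and 60.9% of 284 in switched receptors (55.0 to 66.6). Activation-induced deaminase is known to favour the C of AGC and, on the other strand, the G of GCT. These bases made up 4.80% of V bases in IgM and 5.53% in switched receptors, but 12.5% (5.55 to 23.2) and 15.8% (11.8 to 20.6) of the substituted bases.

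**Figure D5:**
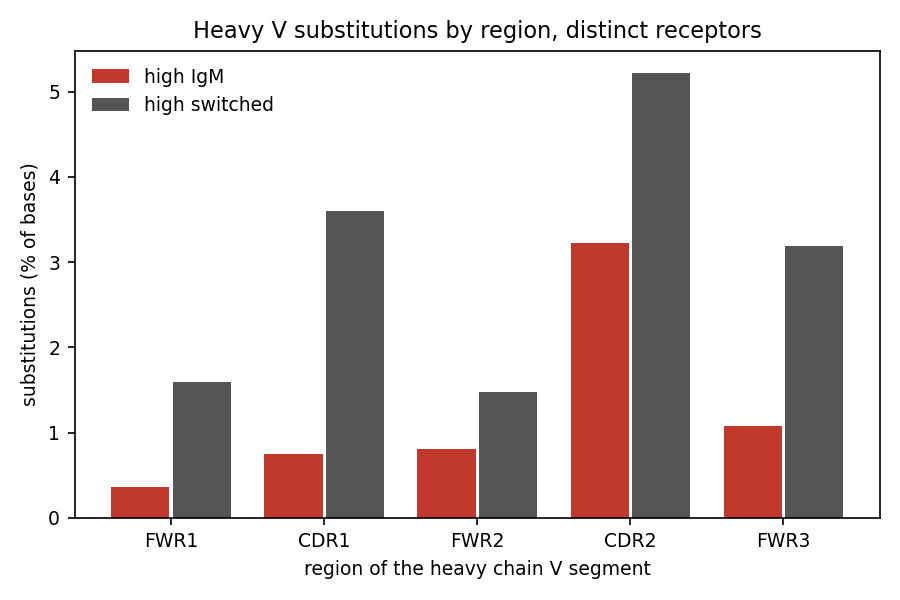
Heavy chain V substitutions in percent of the bases of each framework (FWR) and complementarity-determining region (CDR), pooled over 22 distinct IgM and 36 distinct switched receptors of high cells. Both classes peaked in CDR2, at 3.22% in IgM and 5.22% in switched receptors.

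Heavy chain junctions of high IgM cells had fewer bases counted as N, the name for untemplated bases that terminal transferase adds at the joints. Counted were bases assigned to no V, D or J segment, so without a called D segment all bases between V and J. Means for IgM and switched cells were 6.40 and 7.18 bases in 5xFAD dCLN, 5.00 and 8.20 in WT dCLN, and 4.38 and 9.33 in WT sCLN, lower in IgM in 3 of 3 libraries (mean difference -2.98 bases, SD 2.10, exact p = 0.25, the smallest possible, adjusted p = 0.562). With a threshold of 50 UMIs, where 6 libraries held both classes, the difference was -1.59 bases. Medians over all 6 libraries were 4 and 7 bases, against 7 in other IgM and 8 in other switched cells. Each high cell of the 6 libraries had N bases, with 2 as the lowest number in IgM and 1 in switched cells. The highest switched count, 26, was in an IGHV1-84 cell of WT sCLN without a called D segment and with 9.18% mutation. Also without one, the IgG2c clone of IGHV1-50 had 11, a switched IGHV1-72 cell 1 and the IgM clone of IGHV1-18 4. The part of D segment calls and of mutation in the difference was not tested. Junction lengths overlapped, at 27 to 57 bases in IgM (median 42) and 24 to 57 in switched cells (median 43.5).

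High cells used many V genes. The 26 IgM cells used 21 IGHV genes and the 42 switched cells 25. IGHV1, the largest family, held 15 of 26 IgM cells (57.7%, 36.9 to 76.6) and 28 of 42 switched cells (66.7%, 50.5 to 80.4). It held 56.7% of other IgM and 53.2% of other switched cells. IGHV2 held 4 cells of each class. Genes used by 3 or more high cells were IGHV1-50 (1 IgM and 4 switched cells), IGHV1-18 (4 IgM cells of 1 clone), IGHV1-76 (4 switched), IGHV8-12 (4 switched, from 4 clones), IGHV1-72 (3 switched) and IGHV2-2 (1 IgM and 2 switched). IGHV8-12 made up 4 of 42 high switched cells (9.52%, 2.66 to 22.6) and 6 of 521 other switched cells, and 3 of these 4 were IgA cells of 5xFAD dCLN. Among innate-like genes, IGHV11-2 appeared in 1 IgM cell of WT iLN, paired with IGKV14-126 and unmutated. That pair is known from B-1a cells that bind phosphatidylcholine. IGHV4-1 was used by 2 IgG2c cells of 1 WT sCLN clone, and IGHV7 and IGHV12 by none. IGHJ3 was used by 8 of 26 IgM cells (4 clones) and 6 of 42 switched cells (5 clones), against 23.5% of other IgM and 18.4% of other switched cells. The other IGHJ genes in IgM and switched cells were IGHJ2 with 7 and 15 cells, IGHJ4 with 6 and 13, and IGHJ1 with 5 and 8.

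Light chains of the IGKV4 family were found in 10 of 25 high IgM cells (40%, 21.1 to 61.3) and 5 of 42 high switched cells (11.9%, 3.98 to 25.6). The family made up 13.4% of other IgM and 11.5% of other switched cells. With each clone counted once it was 7 of 21 IgM clones (33.3%, 14.6 to 57.0) and 5 of 35 switched clones (14.3%, 4.81 to 30.3), with overlapping intervals. The IgM cells with IGKV4 were 3 of 5 in 5xFAD dCLN, 5 of 6 in WT dCLN, 0 of 4 in 5xFAD sCLN, 1 of 7 in WT sCLN and 1 of 3 in WT iLN. IGKV4-57 was in 3 of 25 IgM cells (3 clones) and in 0 of 42 switched cells, against 1.13% of other IgM and 2.39% of other switched cells. Other light chain V genes used by 3 or more high cells were IGKV4-55 (4 IgM cells of 1 clone), IGKV1-117 (1 IgM and 3 switched cells), IGKV17-121 (1 IgM and 2 switched), and IGKV8-30, IGKV10-96, IGKV11-125 and IGKV12-46 (3 switched cells each). IGKV8 light chains were in 2 of 25 and 6 of 42 cells, and IGKV1 in 3 and 4. IGKV6, the family of 16.4% of other IgM and 15.1% of other switched cells, was in 0 and 3. Lambda chains, all IGLV1 (chromosome 16, 19085017 to 19085500), were in 3 of 25 IgM cells (12%, 2.55 to 31.2) and 0 of 42 switched cells, which allows up to 8.41% by the exact interval. IGLV1 made up 3.38% in other IgM and 2.98% in other switched cells. IGKJ5 was joined in 10 of 25 IgM cells (7 clones) and 11 of 42 switched cells (10 clones), against 24.8% of other IgM and 27.6% of other switched cells. IGKJ1 was joined in 2 and 13 cells, against 28.5% of other IgM and 26.8% of other switched cells.

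Clones, cells of 1 library with the same V and J genes and similar heavy chain junctions, held 11 of 26 high IgM cells (42.3%, 23.4 to 63.1) and 18 of 42 high switched cells (42.9%, 27.7 to 59.0). The shares for IgM and switched cells were 40% and 18.2% in 5xFAD dCLN, 83.3% and 73.3% in WT dCLN, and 25% and 33.3% in WT sCLN. Their mean difference was 7.83 points (SD 15.2, n = 3, exact p = 0.5, adjusted p = 0.562), higher in IgM in 2 of 3 libraries, and it was 0.895 with identical receptors counted once and 0.833 without 5xFAD dCLN, and turned to -7.14 with a threshold of 50 and to -6.63 with the mixed library added. High IgM cells were in clones, built from heavy chains alone, more often than other IgM cells in 5 of 5 libraries. The shares for high and other IgM cells were 40% and 10.6% in 5xFAD dCLN, 83.3% and 17.6% in WT dCLN, 25% and 11.6% in 5xFAD sCLN, 25% and 14.6% in WT sCLN, and 33.3% and 8.46% in WT iLN. In 5xFAD sCLN this was 1 of 4 high IgM cells and in WT iLN 1 of 3, and both of these cells had 2 light chains. Of the 2 cells in that 5xFAD sCLN clone, 1 had the light chain V gene of the high cell. The mean difference was 28.8 points (SD 22.1, exact p = 0.0625, the smallest possible with 5 libraries, adjusted p = 0.375). It was 9.31 points with a threshold of 50 UMIs, 17.1 with identical receptors counted once and 17.7 in cells with exactly 1 light chain. The exact sign-flip p was 0.125 with identical receptors counted once. It was 0.3125 with exactly 1 light chain, a setting that left out the clone cells of 5xFAD sCLN and WT iLN. With the same light chain required of a clone, the mean difference was 21.8 points and the exact sign-flip p 0.25. At 200 UMIs, with 4 libraries, these were 21.4 points and 0.5.

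Clones with several high cells mostly held 1 receptor. Receptors were called identical by their heavy and light chain junctions, and V regions were not compared. Over the 6 libraries, 2 receptors recurred in 6 IgM cells and 5 receptors in 11 switched cells, so the high cells came from 22 distinct IgM and 36 distinct switched receptors. Heavy chain junctions of clones with 2 or more high cells, all but 1 of them, are printed below in that order, from the conserved cysteine codon to the tryptophan codon, with N bases in capitals, because they show that IgM and switched clones alike can repeat 1 sequence.
WT dCLN, IgM, IGHV1-18 and IGHJ3 with IGKV4-55: tgtgcaagaGGGGggtttgcttactgg
WT sCLN, IgM, IGHV2-3 and IGHJ3 with IGLV1: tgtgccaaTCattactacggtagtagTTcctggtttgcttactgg
5xFAD dCLN, IgA, IGHV1-55 and IGHJ1 with IGKV2-137: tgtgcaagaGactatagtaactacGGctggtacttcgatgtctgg
WT dCLN, IgG2c, IGHV1-50 and IGHJ4 with IGKV11-125: tgtataagGGGGCGGCATCtgggctactgg
WT dCLN, IgG2b, IGHV2-9-1 and IGHJ4 with IGKV17-121: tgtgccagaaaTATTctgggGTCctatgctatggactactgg
WT dCLN, IgG2c, IGHV1-72 and IGHJ2 with IGKV8-30, first cell: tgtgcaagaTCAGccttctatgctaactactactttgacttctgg
WT dCLN, IgG2c, IGHV1-72 and IGHJ2 with IGKV8-30, other cell: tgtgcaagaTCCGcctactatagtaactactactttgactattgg
WT sCLN, IgG2c, IGHV4-1 and IGHJ3 with IGKV13-85: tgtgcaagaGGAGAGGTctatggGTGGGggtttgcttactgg
The junctions of the IgM cell with most UMIs and of the IGHV11-2 cell, each the only high cell of its receptor, follow for comparison.
WT sCLN, IgM, IGHV1-50 and IGHJ3 with IGKV4-70: tgtgcCTcctactCgtttgcttactgg
WT iLN, IgM, IGHV11-2 and IGHJ1 with IGKV14-126: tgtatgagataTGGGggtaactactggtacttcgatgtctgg

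The WT dCLN clone of IGHV1-18 (chromosome 12, 114682632 to 114683065) held 4 IgM cells with 192, 223, 263 and 394 heavy chain UMIs, no heavy chain substitution and a short junction of 27 bases without a called D segment. It supplied 4 of the 6 high IgM cells of that library. The 2 IgM cells of IGHV2-3 in WT sCLN were close in UMIs (1171 and 1183). The IgG2c clone of IGHV1-50 held 3 cells with 1231 to 4931 UMIs, each with 5.46% heavy chain mutation. The IgG2c clone of IGHV1-72 was the exception, with 2 different heavy chain junctions and 5.10% mutation in the first and 3.74% in the other cell. The barcodes that shared an identical receptor with a high cell differed from each other at 10 to 15 of their bases. These barcodes may each be a cell of the clone or may hold RNA released by another, which was not tested. Not all of them had the same isotype and V substitutions. The IGHV1-15 barcodes of 5xFAD dCLN were IgM and IgG1, with heavy chain mutation of 3.06% and 3.40% in the clone.

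Some clones joined a high cell with cells below the threshold. In 5xFAD dCLN, the high IgM cell of IGHV1-82 (148 UMIs, 2.04% mutation) was the only IgM cell in a clone with 7 IgG1 cells, and the high IgM cell of IGHV1-15 (108 UMIs, 3.40%) had an IgG1 relative with 12 UMIs and the same heavy and light chain junctions. In WT dCLN, the mutated IgM cell of IGHV1-26 (264 UMIs, 4.08%) had an IgM relative with 13 UMIs. In WT iLN, the IGHV11-2 cell (116 UMIs) was grouped with an IgM cell of 41 UMIs and a different junction. Neither had a heavy chain substitution, and whether they descend from 1 cell was not tested.

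Receptors of high switched cells with identical heavy and light chain junctions in another library were found between WT dCLN and WT sCLN. The IgA receptor of IGHV1-64 and IGKV3-2 was in a WT dCLN cell with 3074 UMIs and a WT sCLN cell with 22 UMIs, both at 5.10% mutation. No high IgM cell had such a relative. The nearest was the IGHV1-15 cell of 5xFAD dCLN, whose match in WT sCLN differed at 6 junction bases and in the light chain junction.

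The mixed library held 10 IgM and 20 switched high cells, the switched ones being 11 IgG2c, 5 IgG2b, 2 IgA and 2 IgG3. Heavy chain UMIs had medians of 166.5 in IgM (102 to 1566) and 1952 in switched cells (264 to 5803). Heavy chain mutation averaged 0.272% in IgM (SD 0.551) and 1.87% in switched cells (SD 1.67), and 3 of 10 and 15 of 20 cells were mutated. Lambda chains were in 2 of 10 IgM cells, with IGLV2 and IGLV3, and in 1 of 20 switched cells. IGKV4 was in 0 of 10 IgM and 2 of 20 switched cells. In this library 3 receptors, identical by their junctions, recurred in 6 switched cells and none in IgM cells. Of these, IGHV1-26 with IGKV10-96 was in an IgG2c cell with 2401 UMIs and an IgG2b cell with 322 UMIs, neither mutated. V regions differed in the rest: the IGHV1-80 cells had 9 and 7 heavy chain substitutions and the IGHV8-8 cells 8 and 11.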

How the data were processed

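Contigs were assembled from B cell receptor libraries of 7 samples, and the submitters' processing notes name Cell Ranger 6.0.1, Seurat 4.1.0 and mm10 without a role. The UMIs and reads of each contig are counts as deposited by the authors. The deposited V identity is a fraction between 0 and 1, and N and junction lengths are in bases. The germline set is not given in the sources used here.

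Cells with 1 productive heavy chain and a constant region call were kept, and barcodes with more heavy chains were left out as possible doublets, with no doublet caller. IgM is IGHM alone, and switched is IgG, IgA or IgE. V mutation is the percent of V bases that differ from the germline alignment. Light chain UMIs are summed over the light chains of a cell. Other light chain values are of the light chain with most UMIs, and in tests of cells with 1 light chain. Clones were built within a library from heavy chains of 1 V gene, 1 J gene and 1 junction length, linking junctions that differ at 0.15 of their bases or fewer. Receptors of 1 library were called identical when the heavy and light chain junctions were the same. The members, lists and comparisons were chosen with earlier results of these data known. Named genes were those in 3 or more high cells, innate-like IGHV and lambda genes, clones with 2 or more high cells or shared between libraries, the 3 highest and 3 most mutated cells of a class, and the 5 cells on each side of the threshold. The least mutated cells of a class, also in that rule, tie at 0 and are not named. Genes used by 1 or 2 cells are named only as parts of a receptor. Coordinates are from GENCODE M21 on GRCm38, also called mm10, in which 87 of 87 names were found. Python 3.11.15, pandas 2.3.3 and SciPy 1.17.1 were used, and the mutation counter and clone joining were tested on simulated data. The junction of 1 clone and the values of that clone are not reported here.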

Additional observations from a re-analysis of the deposited data

Results flagged for a closer look

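Differences between IgM and switched high cells had opposite signs in libraries set side by side, each library being 1 sample, and these contrasts of libraries were not tested. For heavy chain V mutation, IgM minus switched was 0.0423 percentage points in 5xFAD dCLN and -2.92 in WT dCLN. For light chain V mutation it was 0.236 in 5xFAD dCLN and -2.35 in WT dCLN. The log2 ratio of light to heavy chain UMIs gave -0.28 in WT dCLN and 0.72 in WT sCLN, and the percent of cells in clones 10 points in WT dCLN and -8.33 in WT sCLN.

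Barcodes with more than 1 productive heavy chain lay outside the rule. Over the 6 libraries only WT iLN held such barcodes with a heavy chain of 100 or more UMIs, 2 of its 63.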

How the results depend on the processing

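Results were recomputed, where a setting applied to them, with other thresholds, identical receptors or clones counted once, 1 light chain required, at least 3 cells per class, the mixed library added, IgD joined to IgM, other mutation measures or clone distances, and each library left out. The differences between genotypes had no setting with a library left out, the mixed library, IgD or a minimum of cells. The IgM share of high cells moved to 60.1% at 50 UMIs and 23.1% at 200, and lay between 34.4% and 42.6% with 1 library left out. The log2 light to heavy ratio turned to 0.54 at 200 UMIs and 0.42 with medians, and ranged from -1.08 to 0.22 with 1 library left out. The percent in clones, IgM minus switched, turned to -7.14 at 50 UMIs and -6.63 with the mixed library, and ranged from 0.833 without 5xFAD dCLN to 15.9 without WT sCLN. It was 14.5 and 16.4 at clone distances of 0.10 and 0.20 and 12.3 with the same light chain required. The share of high IgM cells with a heavy chain substitution in dCLN, 5xFAD minus WT, turned to -22.6 points at 50 UMIs. The causes were not tested.

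The other results kept their sign in the alternatives run, with 1 library left out giving -2.82 to -1.34 for heavy and -2.15 to -0.852 for light chain mutation, -4.08 to -1.99 for N bases, -6.29 to -4.09 for the percent that was high, 0.553 to 1.13 and 19.5 to 33.4 for mutation and clones of high against other IgM cells, and -1.04 to -0.00385 for mutation of high against other switched cells. The lowest of these for heavy and light chain mutation came without 5xFAD dCLN and the highest for light chain mutation without WT dCLN. That of high against other switched cells was -1.04 without WT dCLN, -0.00385 without 5xFAD iLN or with at least 3 cells per class, -0.285 at 50 UMIs and -0.322 with medians. The percent that was high was -8.25 at 50 UMIs. The difference between genotypes was added after seeing the data. No paired analysis was possible because each group had 1 library, so that replicate numbers pair nothing; IgM and switched cells were compared within each library, and genotypes within each node without a test. Few cells per class, at most 15 in a library of 1 node, limit every value.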
